A study of Mus musculus with 9 samples.

Results

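The 10 genes of apoptotic cell uptake and scavenging followed here in sorted liver macrophages were Gas6, Mfge8, Mertk, Axl, Stab1, Lrp1, Elmo1, Msr1, Scarb1 and Scarb2. They were taken by symbol, 10 of the 23413 genes in the deposited count table, and 9 of them had enough counts to be tested among 11393 genes. Gas6 did not pass the filter on low counts. RNA-seq was performed on 9 libraries of F4/80+CD11b+ cells (also gated as Gr1low in the study's methods) sorted from livers of male C57BL/6 mice, each labelled as Kupffer cells (KCs, the resident macrophages of the liver) of a numbered mouse. Normal chow (NC) was given to the mice of 2 libraries and a high-fat diet (HFD) to those of 7. The diets began at 5 weeks of age and lasted 8 weeks. Of the HFD libraries, 3 came from mice that received vehicle (PEG3000) and 4 from mice that received DPI (diphenyleneiodonium, an iodonium compound known as an inhibitor of flavoenzymes and used by the study as an agonist of GPR3) at 2 mg/kg every 5 days from week 3. The study describes more mice per group than there are libraries, and whether the libraries are a subset of those mice or hold pools is not given in the sources used here. The sample labels also carry a treatment text of purified KCs with 500 nM DPI for 24 h, which differs from the design text, and the dosing of mice was followed here. NC-fed mice are not described as injected, so diet and injection cannot be told apart in the comparison of vehicle-treated HFD-fed with NC-fed mice.

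Efferocytosis is the uptake of dying cells by phagocytes. Bridging molecules such as Gas6 and Mfge8 bind phosphatidylserine on the dying cell and hand it to receptors, among them the TAM kinases Mertk and Axl for Gas6 and integrins for Mfge8. Stabilin-1 (Stab1) binds phosphatidylserine directly, Lrp1 takes up calreticulin-marked cells and many protein ligands, and Elmo1 works with Dock proteins to switch on Rac and fold the membrane around the cargo. The scavenger receptors Msr1, Scarb1 and Scarb2 differ in cargo, since Msr1 binds modified lipoproteins, Scarb1 exchanges cholesterol with high-density lipoprotein and Scarb2 carries β-glucocerebrosidase to lysosomes. In the liver, KCs and sinusoidal endothelial cells share much of this clearance, and Stab1 and Scarb1 are known in both.

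The sequences before the starts of Stab1, Mertk and Elmo1 are shown because Stab1 and Mertk had the most alike levels across libraries of any pair among the members, while Elmo1 and Stab1 were the members called different between the diets. Each is the run of 250 bases upstream of a RefSeq start on GRCm38.p6, written 5′ to 3′ on the strand of the gene. Capitals mark matches on either strand to any of 5 motifs, the GC box GGGCGG, the PU.1 core GAGGAA, the E-box CACGTG, the AP-1 site TGACTCA and the nuclear receptor half-site AGGTCA.
Stab1 (chr14:31168642-31168891, minus strand): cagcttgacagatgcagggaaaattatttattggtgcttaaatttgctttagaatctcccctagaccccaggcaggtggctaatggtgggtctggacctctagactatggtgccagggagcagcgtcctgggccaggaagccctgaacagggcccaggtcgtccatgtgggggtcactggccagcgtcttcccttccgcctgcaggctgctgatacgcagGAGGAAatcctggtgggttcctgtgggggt
Mertk (chr2:128698665-128698914, plus strand): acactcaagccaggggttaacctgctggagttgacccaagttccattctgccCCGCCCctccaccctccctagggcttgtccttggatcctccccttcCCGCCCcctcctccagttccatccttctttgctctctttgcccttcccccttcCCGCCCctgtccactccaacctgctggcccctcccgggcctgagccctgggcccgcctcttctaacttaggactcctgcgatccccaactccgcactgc
Elmo1 (chr13:20090257-20090506, plus strand): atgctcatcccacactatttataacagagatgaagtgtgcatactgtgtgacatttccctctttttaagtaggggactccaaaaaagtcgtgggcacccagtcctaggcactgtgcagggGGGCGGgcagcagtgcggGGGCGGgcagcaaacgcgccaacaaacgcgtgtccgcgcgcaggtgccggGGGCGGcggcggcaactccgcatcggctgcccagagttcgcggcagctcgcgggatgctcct
The Stab1 window held a single match, the PU.1 core 30 to 25 bases before the start. The Mertk window held 3 GC boxes, all on the opposite strand, and the printed Elmo1 window 3 GC boxes on the gene's own strand. RefSeq gives Elmo1 another start, whose window (chr13:20472740-20472989) held no match to any of the 5 motifs and is not printed. No matches overlapped. Of 32851 windows of the same length, 32.7% held a GC box, 23.3% the PU.1 core, 14.0% the half-site, 6.02% the E-box and 4.46% the AP-1 site. RefSeq windows were found for 8 of the 10 members, all but Msr1 and Scarb1.

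Library totals ranged from 3534325 to 15585775 counts, and the ribosomal RNA precursor Rn45s took 27% to 44.5% of them. Levels are given as CPM, counts of a gene scaled to a common library total by the TMM method over the genes kept. A floor of 3 counts, which covers counting error only, equals 0.184 to 1.02 CPM. General macrophage markers, 8 of 8 in the table and led by Lyz2, Csf1r and Cd14, summed to 15632 to 44392 CPM. The 12 KC markers summed to only 12.9 to 140 CPM, and the defining KC gene Clec4f was counted 0 and 244 times in the NC libraries, 42, 0 and 0 times in those of vehicle-treated mice and 219, 6, 4 and 6 times in those of DPI-treated mice. The label as KCs was therefore backed by few counts of KC-defining genes in most libraries. Monocyte markers, 9 of 9 in the table and led by Plac8, Ly6c2 and Chi3l3, summed to 4300 to 8843 CPM, above the KC markers in every library. Neutrophil markers summed to 937 to 5774 CPM. Markers of sinusoidal endothelial cells (13 genes, led by Dnase1l3, Clec4g and Eng) summed to 277 and 473 CPM in NC, 56.2, 26.8 and 42.6 CPM with vehicle and 347, 168, 25 and 52.6 CPM with DPI. Both NC libraries and DPI libraries 1 and 2 were thus high in endothelial transcripts, and the other 5 were low. The F4/80+CD11b+ gate should remove endothelial cells, hepatocytes and lymphocytes and the Gr1low gate neutrophils, so transcripts of these cells were found in spite of the sort.

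Per length of exon, Lrp1 was the member with the highest mean level and Gas6 the one with the lowest. Over the 9 libraries Lrp1 averaged 20.6 ± 5.78 CPM per kb (SD, n = 9) and Scarb1 12.9 ± 4.26. Scarb2 (8.55 ± 2.51), Msr1 (8.08 ± 2.27), Axl (7.22 ± 3.39) and Elmo1 (6.64 ± 2.74) followed closely. Stab1 averaged 2.63 ± 2.06, Mertk 1.79 ± 1.05, Mfge8 0.979 ± 0.389 and Gas6 0.143 ± 0.354 CPM per kb. The ranges of all neighbours in this order overlapped over the 9 libraries. Within each group, which held fewer libraries, some neighbours lay apart. With vehicle these included Lrp1 and Scarb1 (13.7 to 26.4 against 7.64 to 13.5 CPM per kb) and Msr1 and Mertk (5.74 to 11.3 against 1.2 to 2.0). In NC they included Scarb1 and Msr1 (13.3 to 20.6 against 5.56 to 8.41), and with DPI Elmo1 and Stab1 (4.79 to 7.97 against 0.703 to 4.16). Elmo1 ranked at 3 of 10 with vehicle, with 9.27 ± 3.05 CPM per kb (SD, n = 3), and at 7 of 10 in NC, with 4.13 ± 0.415 (SD, n = 2). These ranks rest on a union of exons of 12.58 kb for Elmo1, whose longest transcript has 5.46 kb. The order was computed with the union of exons of each gene, and with the longest transcript in its place 39 of 45 pairs of members kept their order, Lrp1 and Scarb1 being among those that did not.

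**Figure D1:**
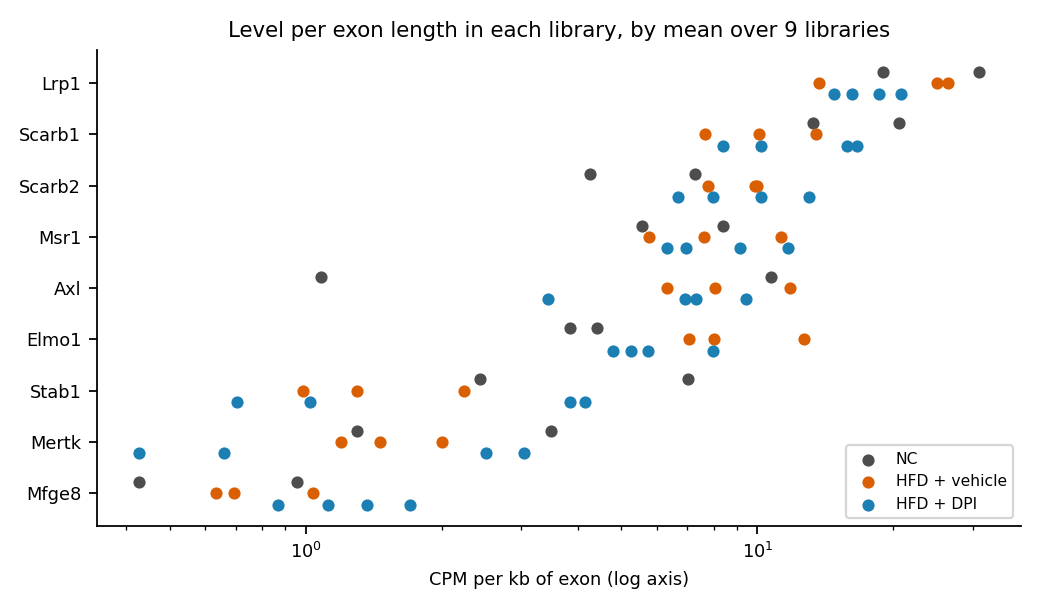
Level of the 9 tested members per kb of exon in each library (x axis, CPM per kb, log axis), with members on the y axis ordered by the mean over 9 libraries and colours for NC, vehicle-treated HFD and DPI-treated HFD. Lrp1 lies at the high end, between 13.7 and 30.9, and Mfge8 at the low end, between 0.427 and 1.7.

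The bridging molecules had the lowest mean levels of the members, in CPM and per kb of the union of exons. Mfge8 (union 4.69 kb, longest transcript 2.33 kb) did not stay below Mertk with the longest transcript. Gas6 (growth arrest-specific 6, chromosome 8 from 13465374 to 13494490, this and all member positions on GRCm38 from GENCODE M21) was counted 0 and 3 times in NC, 0 times in all 3 vehicle libraries and 0, 8, 0 and 0 times with DPI. No difference in Gas6 between groups was detectable at this depth. Mfge8 (chromosome 7 from 79133768 to 79149060) had 2 and 4.48 CPM in NC, 4.88, 3.26 and 2.97 CPM with vehicle, and 5.27, 6.45, 4.08 and 7.96 CPM with DPI, from 11 to 86 counts. The highest 3 of its 9 values were DPI libraries, but the groups overlapped. Its log2 fold change was 0.68 (SE 0.77, adjusted p = 0.999) for DPI against vehicle and 0.19 (SE 0.92, adjusted p = 0.961) for HFD with vehicle against NC, in the quasi-likelihood test of edgeR with Benjamini-Hochberg correction over 11393 genes, as for all tests below. A gene is said to pass, to be called, or to have risen or fallen where its unadjusted p was under 0.05 and its change at least 2-fold, the study's own limits, and the adjusted p beside it shows that most such calls did not survive correction.

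Among the member receptors for dying cells, Stab1 fell in the libraries of vehicle-treated HFD-fed mice and the others did not pass the test. Stab1 (chromosome 14 from 31139013 to 31168641) had 25 and 72.1 CPM in NC, 23.1, 10.2 and 13.4 CPM with vehicle, and 39.5, 42.8, 7.24 and 10.5 CPM with DPI. All vehicle libraries lay below both NC libraries, the closest pair being 23.1 against 25 CPM, while the DPI libraries split into a high pair (1 and 2) and a low pair (3 and 4). The log2 fold change of HFD with vehicle against NC was -1.64 (SE 0.73, adjusted p = 0.371). Without NC library 2 it was -0.66, without vehicle library 2 -1.41 and without vehicle library 3 -1.50, none of them at an unadjusted p under 0.05, so each of these 3 libraries decided the call. DPI libraries 1 and 2, those with high Stab1, were the DPI libraries with high endothelial marker sums, and the 2 NC libraries were also high. The part of endothelial transcripts in the Stab1 difference was not tested. In these bulk libraries, fewer cells of a type and less RNA per cell cannot be told apart.

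Mertk (chromosome 2 from 128698956 to 128802894), the TAM receptor that macrophages use most in resting tissue, followed Stab1 from library to library. It had 5.65 and 15.1 CPM in NC, 8.66, 6.35 and 5.2 CPM with vehicle, and 13.2, 10.9, 1.86 and 2.86 CPM with DPI. Its DPI libraries were split in the same pairs as those of Stab1, and all groups overlapped. The log2 fold changes were -0.62 (SE 0.90, adjusted p = 0.83) for HFD with vehicle against NC and 0.09 (SE 0.76, adjusted p = 0.999) for DPI against vehicle. The 95% interval of the latter, -1.56 to 1.74, still allowed a change of more than 2-fold in either direction. Among the members Mertk was the one most like Stab1, with a Pearson r of 0.901 of log2 CPM over the 9 libraries, given as a description since the libraries share their differences in depth and in cell types.

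Axl (chromosome 7 from 25757273 to 25788705), the TAM receptor that inflammatory signals are known to raise, was set apart by its NC libraries, with 54.1 and 5.42 CPM. With vehicle it had 31.7, 40.4 and 59.2 CPM and with DPI 34.8, 47.6, 36.7 and 17.2 CPM. Of the 7 HFD libraries, 6 lay between the NC values, and the remaining 1 lay just above the higher. The log2 fold change of HFD with vehicle against NC was 0.56 (SE 0.71, adjusted p = 0.801). Without NC library 1 it was 3.02, which would be called, and without NC library 2 -0.28, so the direction rested on which NC library was kept. DPI against vehicle gave -0.37 (SE 0.58, adjusted p = 0.999, 95% interval -1.62 to 0.88).

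Lrp1 (chromosome 10 from 127538161 to 127621148), a large endocytic receptor of the LDL receptor family, was the best measured member, with 1085 to 5381 counts per library. It had 547 and 336 CPM in NC, 443, 242 and 469 CPM with vehicle, and 330, 369, 262 and 288 CPM with DPI. The mean was 442 ± 150 CPM in NC (SD, n = 2), 384 ± 124 with vehicle (SD, n = 3) and 312 ± 47.1 with DPI (SD, n = 4), and the groups overlapped. The log2 fold changes were -0.20 (SE 0.34, adjusted p = 0.861) for HFD with vehicle against NC, -0.30 (SE 0.28, adjusted p = 0.999) for DPI against vehicle and -0.50 (SE 0.32, adjusted p = 0.586) for DPI against NC.

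**Figure D2:**
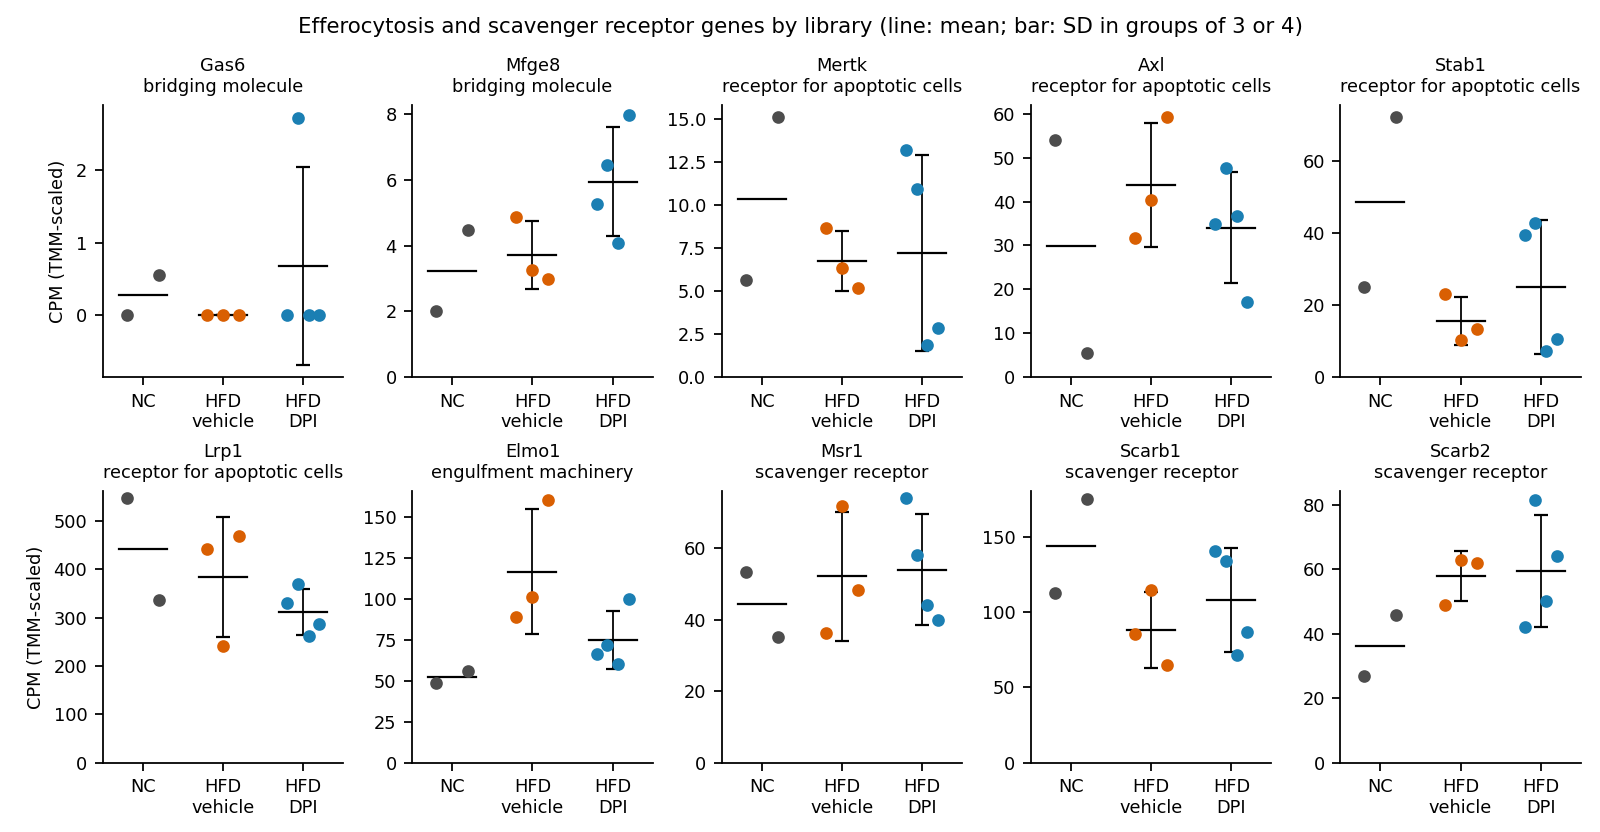
CPM of each of the 10 members (y axis, TMM-scaled, linear) in the libraries of NC-fed, vehicle-treated HFD-fed and DPI-treated HFD-fed mice (x axis), with a line at each group mean and bars for the SD in groups of 3 or 4. All 3 vehicle libraries of Elmo1 lie above both NC libraries and all 3 of Stab1 below, and the 4 DPI libraries of Stab1 and Mertk fall into a high and a low pair.

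The engulfment gene Elmo1 (chromosome 13 from 20090596 to 20608353) rose in the libraries of vehicle-treated HFD-fed mice. It had 48.3 and 55.7 CPM in NC, 88.6, 101 and 160 CPM with vehicle, and 66.1, 72, 60.3 and 100 CPM with DPI. All 7 HFD libraries lay above both NC libraries, and 3 of the 4 DPI libraries lay below every vehicle library, the exception being DPI library 4. The mean was 52.0 ± 5.23 CPM (SD, n = 2) in NC, 117 ± 38.4 (SD, n = 3) with vehicle and 74.7 ± 17.7 (SD, n = 4) with DPI. The log2 fold change of HFD with vehicle against NC was 1.17 (SE 0.37, adjusted p = 0.255), a 2.24-fold increase. Without vehicle library 3, its highest, the log2 fold change was 0.92, below the 2-fold limit, and with scaling by library size alone it was 0.84. With DPI it was lower than with vehicle by a log2 fold change of -0.64 (SE 0.30, adjusted p = 0.999), which did not reach 2-fold. DPI against NC gave 0.52 (SE 0.35, adjusted p = 0.606), and these comparisons share their libraries. Markers of other cells also differed between these groups, those of dendritic cells among them. Dendritic cell markers (9 of 9, led by Ccr7, Cd209a and Itgax) summed to 136 and 139 CPM in NC, 230, 336 and 231 CPM with vehicle, and 136, 189, 282 and 452 CPM with DPI. The sum was higher in every vehicle library than in NC and highest in DPI library 4, the DPI library with the most Elmo1. Other libraries did not match, as DPI library 3 had a sum of 282 CPM but the least Elmo1 of the DPI libraries. Vehicle libraries 1 and 3 had sums of 230 and 231 CPM but 88.6 and 160 CPM of Elmo1. The part of these cells in the Elmo1 levels was not tested.

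Of the member scavenger receptors Msr1, Scarb1 and Scarb2, none passed the test in any of the 3 comparisons. Msr1 (chromosome 8 from 39581685 to 39642673), the class A receptor for modified lipoproteins, had 53.4 and 35.3 CPM in NC, 36.4, 71.8 and 48.3 CPM with vehicle, and 74, 58.1, 44.2 and 39.9 CPM with DPI. Its log2 fold changes were 0.24 (SE 0.41, adjusted p = 0.865) for HFD with vehicle against NC, a sign that scaling by library size alone turned to -0.06, and 0.05 (SE 0.34, adjusted p = 0.999, 95% interval -0.69 to 0.79) for DPI against vehicle. That interval lies within 2-fold in both directions.

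Scarb1 (chromosome 5 from 125277087 to 125341094), the receptor for high-density lipoprotein, had 113 and 175 CPM in NC, 85.5, 115 and 64.9 CPM with vehicle, and 141, 134, 71.4 and 86.8 CPM with DPI. As for Stab1 and Mertk, DPI libraries 1 and 2 were the high pair, and vehicle library 2 lay just above the lower NC value. The log2 fold change was -0.70 (SE 0.38, adjusted p = 0.452) for HFD with vehicle against NC and 0.29 (SE 0.33, adjusted p = 0.999, 95% interval -0.41 to 0.99) for DPI against vehicle. Beside these values, the summed hepatocyte markers were 389 and 622 CPM in NC, 169 to 220 CPM with vehicle and 213 to 354 CPM with DPI, and hepatocytes also express Scarb1. Their part in its levels was not tested.

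Scarb2 (chromosome 5 from 92441314 to 92506833), the lysosomal membrane protein LIMP-2, had 26.8 and 45.8 CPM in NC, 48.8, 62.8 and 61.9 CPM with vehicle, and 42, 81.5, 50.1 and 64 CPM with DPI. All vehicle libraries lay above both NC libraries, and the DPI libraries spanned the vehicle range. Markers of T and NK cells (11 of 12 in the table, led by Nkg7, Il2rb and Cd3d) summed to 90 and 318 CPM in NC, 299, 429 and 380 CPM with vehicle, and 273, 543, 340 and 294 CPM with DPI. DPI library 2 was the highest and NC library 1 the lowest library for both, and the part of these cells in the Scarb2 levels was not tested. The log2 fold change was 0.67 (SE 0.40, adjusted p = 0.488) for HFD with vehicle against NC, 0.71 (SE 0.38, adjusted p = 0.521) for DPI against NC and 0.03 (SE 0.32, adjusted p = 0.999, 95% interval -0.66 to 0.73) for DPI against vehicle.

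Counted together, 1 of the 9 tested members was higher (Elmo1) and 1 lower (Stab1) in HFD with vehicle than in NC at the study's threshold, an unadjusted p under 0.05 with a change of at least 2-fold. Of all genes tested, 7.03% were called higher and 4.63% lower, and 1 call in each direction among 9 genes was near those shares. These calls over all genes depended on the processing, with 801 higher and 528 lower here and 539 and 933 with scaling by library size alone. They were 610 and 287 with the replicate block and 678 and 349 without vehicle library 3. No member had an adjusted p under 0.05, which 0.0614% of all genes (7) had here, against 397 genes with DESeq2, 280 with the likelihood ratio test, 52 with no filter on low counts and 568 without NC library 2. That number was 0 with 2 groups only and with the replicate block, and 1 with scaling by library size alone, with at least 10 counts in every library and without vehicle library 1 or 2 or any single DPI library. It was 3 without NC library 1 and 2 without vehicle library 3. The groups did not overlap for 2 members that were higher, Elmo1 and Scarb2, and for 1 that was lower, Stab1, against 15.0% and 12.5% of all genes. The median log2 fold change was 0.19 over the 9 members and 0.03 over all genes, which scaling by library size alone moved to -0.26. Without vehicle library 3 no member was called, without vehicle library 2 only Elmo1 was, and without NC library 2 Elmo1 and Scarb2 were. Without NC library 1 there were 3 calls, since Axl was added.

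DPI against vehicle gave no called member, with 1.5% of all genes called higher, 1.34% lower and 0% at an adjusted p under 0.05. An unadjusted p under 0.05 was found for 1 member, Elmo1, and for 470 of all genes, and the smallest adjusted p of any gene was 0.999. The counts behind these shares, 171 higher and 153 lower, became 150 and 251 with the replicate block, 155 and 239 with 2 groups only and 65 and 137 with at least 10 counts in every library. With scaling by library size alone they were 196 and 101, and with no filter on low counts 281 and 321. Single vehicle libraries also moved them, to 122 and 65 without library 1, 214 and 307 without library 2 and 126 and 84 without library 3. Single DPI libraries moved them to 102 and 111 without library 1, 113 and 151 without library 2 and 199 and 259 without library 4. Without an NC library they were 277 and 266 (library 1) or 267 and 275 (library 2), with more genes tested. DESeq2 gave an adjusted p under 0.05 for 2 genes of the table and edgeR's likelihood ratio test for 1. No member was without overlap between these groups, against 3.38% of all genes that were higher and 2.48% that were lower. The 9 members had 6 positive and 3 negative log2 fold changes with a median of 0.05, and the median of all genes was 0.04. The 95% intervals of Mfge8, Mertk, Axl, Stab1 and Elmo1 reached beyond 2-fold in at least 1 direction, while those of Lrp1, Msr1, Scarb1 and Scarb2 stayed within it.

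DPI against NC, which shares libraries with both other comparisons, also gave no called member, against 6.24% of all genes called higher, 3.05% lower and 0.00878% at an adjusted p under 0.05. Of all genes, 711 were called higher and 347 lower here, against 546 and 624 with scaling by library size alone, 245 and 282 with at least 10 counts in every library and 1812 and 814 without NC library 2. The single gene with an adjusted p under 0.05 became 266 with DESeq2, 186 with the likelihood ratio test, 22 with no filter on low counts, 572 without NC library 2, 4 without NC library 1 or with thinned counts, and 0 with 2 groups only or the replicate block. Elmo1 was the only member without overlap between these groups, higher with DPI, as were 11.7% of all genes, and 8.5% of all genes lay lower without overlap. Stab1 had a log2 fold change of -0.96 (SE 0.68, adjusted p = 0.635), Mfge8 of 0.87 (SE 0.90, adjusted p = 0.775), Scarb1 of -0.41 (SE 0.36, adjusted p = 0.722), Mertk of -0.53 (SE 0.84, adjusted p = 0.872), Msr1 of 0.29 (SE 0.39, adjusted p = 0.845) and Axl of 0.19 (SE 0.67, adjusted p = 0.947). Axl was called higher without NC library 1 and Scarb2 without NC library 2.

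**Figure D3:**
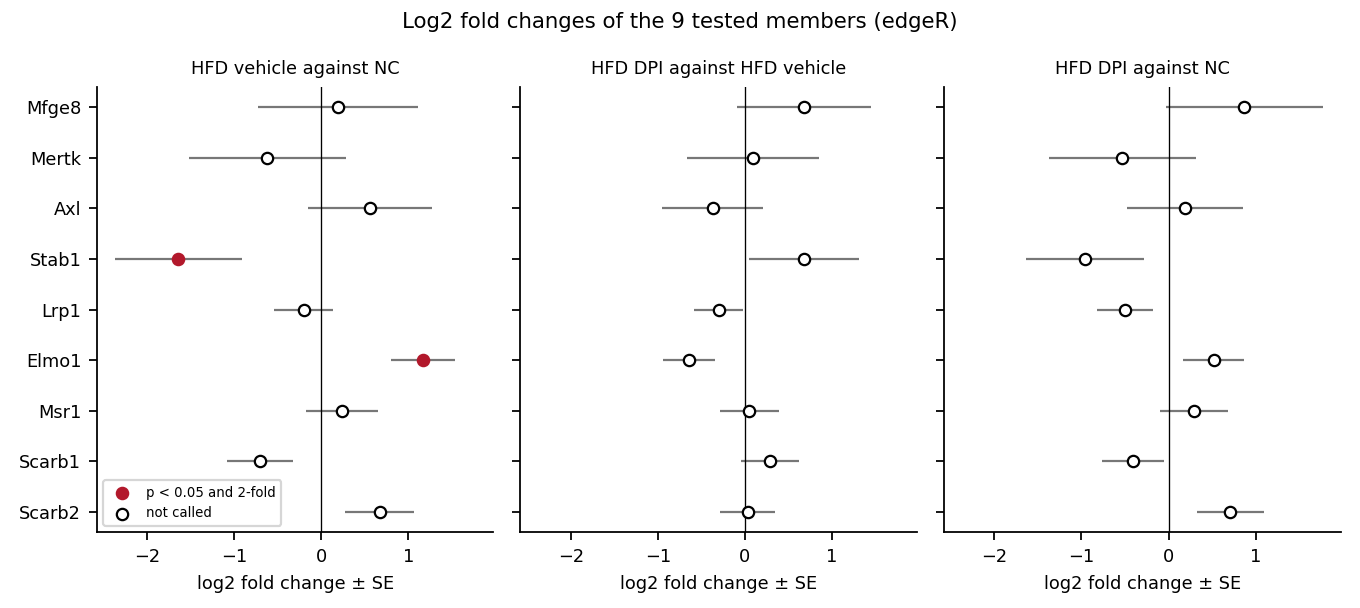
Log2 fold changes (x axis) with standard errors of the 9 tested members (y axis) in the 3 comparisons, on 1 shared scale. Filled points, called at the threshold above, are Elmo1 at 1.17 and Stab1 at -1.64 in HFD with vehicle against NC, and the panels share libraries.

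Stab1, Mertk and Scarb1 were set beside the endothelial markers in each library. In DPI libraries 1 and 2, with endothelial sums of 347 and 168 CPM, these genes had 39.5 and 42.8, 13.2 and 10.9, and 141 and 134 CPM. In DPI libraries 3 and 4, with sums of 25 and 52.6 CPM, they had 7.24 and 10.5, 1.86 and 2.86, and 71.4 and 86.8 CPM. The high pair exceeded the low pair for all 3 genes without overlap, a split of libraries within 1 treatment group that was seen after the values. Lrp1 (330 and 369 against 262 and 288 CPM) and Msr1 (74 and 58.1 against 44.2 and 39.9 CPM) were split in the same way. Elmo1, Axl, Mfge8 and Scarb2 did not follow the split, Elmo1 having 66.1 and 72 CPM against 60.3 and 100 CPM. Clec4g, a lectin of sinusoidal endothelial cells, had 57.4 and 32.3 CPM in DPI libraries 1 and 2 and 0 and 5.31 CPM in DPI libraries 3 and 4. Markers of other cells were split as well. The 12 KC markers summed to 87.4 and 41.4 against 21.7 and 35.2 CPM, and the general macrophage markers to 44392 and 24855 against 23689 and 22182 CPM. Dendritic cell markers summed to 136 and 189 against 282 and 452 CPM, and the neutrophil markers (10 of 11 in the table) to 1104 and 937 against 3892 and 5774 CPM. What part any of these cell types had in the member levels was not tested.

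**Figure D4:**
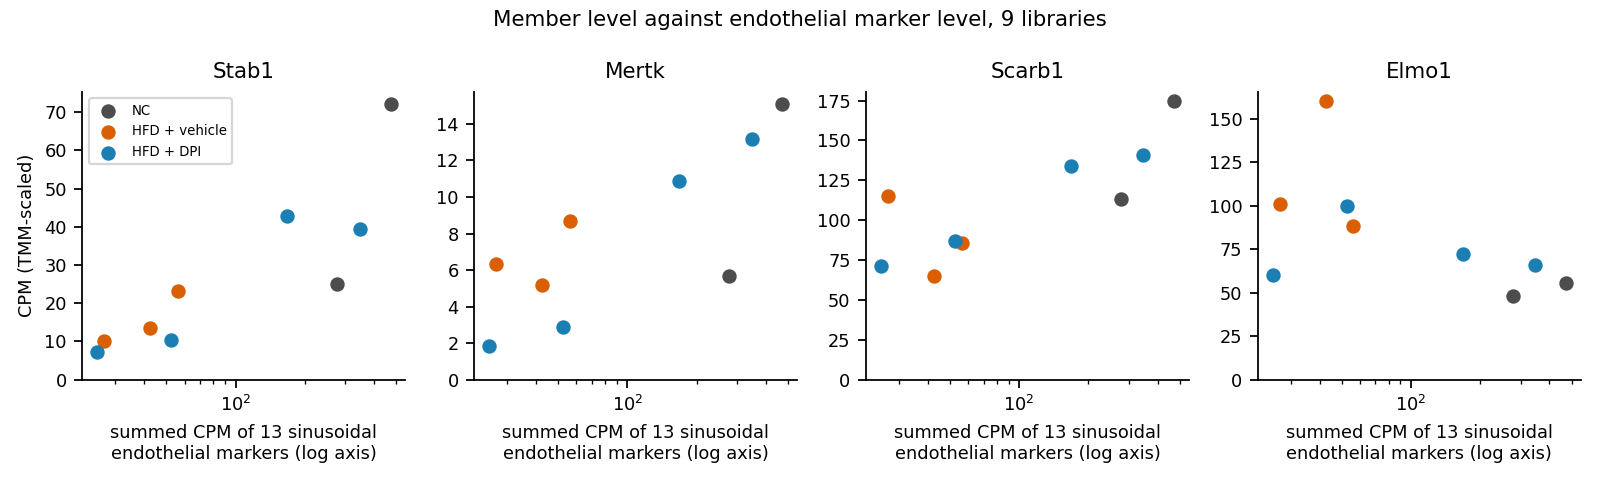
CPM of Stab1, Mertk, Scarb1 and Elmo1 (y axes, TMM-scaled, linear from 0) against the summed CPM of 13 sinusoidal endothelial markers (x axis, log axis), 1 point per library coloured by group. DPI libraries 1 and 2 lie with the NC libraries to the right, at sums of 168 CPM or more, where Stab1 ranges from 25 to 72.1 CPM, and the other 5 libraries lie at 56.2 CPM or less, where it ranges from 7.24 to 23.1.

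Beyond the 10 members, 5 lists of genes of the same processes held 99 further genes, of which 81 were tested. In HFD with vehicle against NC, 9 of the 81 were called higher and 6 lower, beside 7.03% and 4.63% of all genes tested, and the median of their log2 fold changes was 0.11. Scavenger receptors accounted for 4 of the higher calls and no lower one among 16 tested, engulfment genes for 1 higher and 4 lower among 29, receptors for dying cells for 1 higher and 1 lower among 17, bridging molecules for 1 lower among 9, and modifiers of TAM and LRP1 signalling or ligands for 3 higher among 10. Lpl, lipoprotein lipase, a ligand of Lrp1, had 21.7 and 22.4 CPM in NC and 121, 231 and 94.9 CPM with vehicle, and rose by a log2 fold change of 2.76 (SE 0.42, adjusted p = 0.0452). It was the single listed gene with an adjusted p under 0.05, which rested on the processing. With edgeR's quasi-likelihood test its adjusted p was 0.183 with 2 groups only, 0.166 with the replicate block and 0.0847 with scaling by library size alone. It was 0.0524 to 0.0964 without NC library 1, vehicle library 1 or 2 or any single DPI library, and 0.0165 and 0.0489 without NC library 2 and vehicle library 3. DESeq2 gave 2.05e-07 and the likelihood ratio test 6.85e-06. Ucp2, a mitochondrial carrier linked to continued uptake of dying cells, rose from 928 and 964 CPM to 2435 to 3683 CPM (log2 fold change 1.71, SE 0.28), with an adjusted p that rounds to 0.05 from above. Both genes and Cd36 kept their calls, which use the unadjusted p and the 2-fold limit, with each library left out in turn.

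The fatty acid and oxidized lipoprotein receptor Cd36 rose from 27.0 and 28.6 CPM in NC to 111, 88 and 81.5 CPM with vehicle (log2 fold change 1.75, SE 0.47, adjusted p = 0.175). Cxcl16, a chemokine that also binds oxidized lipoprotein, rose by a log2 fold change of 1.2 (SE 0.37, adjusted p = 0.238), or 0.91 and not called with scaling by library size alone, and Socs1, the cytokine inhibitor that TAM receptors induce, by 2.04 (SE 0.53, adjusted p = 0.166). Scarf1, an endothelial and myeloid scavenger receptor that binds C1q, had 0 counts in both NC libraries and 21, 17 and 68 counts with vehicle, at least 14.8-fold higher when compared with the mean floor of 3 counts per NC library. That bound was 7.0-fold without vehicle library 3, which held 68 of those counts. Of the genes that fell, Stab2, the endothelial relative of Stab1, had 38.4 and 51.5 CPM in NC and 0, 0.181 and 1.98 CPM with vehicle (log2 fold change -6.01, SE 1.67, adjusted p = 0.193). The size of that change was uncertain, at -8.54 without vehicle library 3, which held 8 counts against 0 and 1 in the other vehicle libraries, and at -5.40 without vehicle library 1. It is itself one of the endothelial markers above. C1qa, a chain of the complement bridging molecule C1q, fell from 92.5 and 82.2 CPM to 39.7, 41.5 and 19.8 CPM (log2 fold change -1.37, SE 0.57, adjusted p = 0.345). Trio (-1.32), a Rac exchange factor, Abca7 (-1.19), a lipid transporter, Crk (-1.05), an adaptor of the Elmo and Dock pathway, and Rxra (-1.83), a nuclear receptor, also fell at an unadjusted p under 0.05. NC library 1 held 101 CPM of Trio, 99.6 of Abca7, 74.1 of Crk and 47.0 of Rxra against 43.0, 33.8, 32.3 and 13.4 CPM in NC library 2, and without it none of these 4 was called, with log2 fold changes of -0.56, -0.20, -0.32 and -0.65. All 4 also lost their calls without vehicle library 2 (-1.11, -0.93, -0.87 and -1.58). Crk lost it as well without vehicle library 1 (-1.13) or 3 (-1.06), and Rxra without vehicle library 1 (-1.91) or 3 (-1.92) or DPI library 2 (-1.78) or 3 (-1.83). C1qa lost its call without either NC library or without vehicle library 1 or 3 (-1.05 to -1.45).

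With DPI against vehicle, 3 of the 81 listed genes were called higher and 1 lower, beside 1.5% and 1.34% of all genes tested, with a median of -0.06, and none passed adjustment. The groups did not overlap for 1 of the 81 that was higher and 8 that were lower, against 3.38% and 2.48% of all genes, while the 3 genes called higher all overlapped. Lpl had 75.4, 81.2, 79.4 and 75.6 CPM with DPI, all below the vehicle libraries but short of 2-fold (log2 fold change -0.94, SE 0.31, adjusted p = 0.999). The size of this change rested on single vehicle libraries, at -1.08 without library 1, -0.47 without library 2 and -1.19 without library 3. Ucp2 had 1635, 1576, 2300 and 2205 CPM, also all below vehicle and short of 2-fold (-0.68, SE 0.22, adjusted p = 0.999). These vehicle libraries also enter the comparison with NC, in which both genes rose. Cd36 was lower with DPI, at 22.5, 37.7, 47.1 and 73.6 CPM, all below the vehicle libraries (log2 fold change -1.04, SE 0.36, adjusted p = 0.999). C1qa was higher, at 109, 124, 32.5 and 32.1 CPM (1.14, SE 0.50, adjusted p = 0.999), and so was C1qc, at 96.7, 140, 28.4 and 32.1 CPM against 40.4, 31.2 and 28 CPM with vehicle (1.16, SE 0.50, adjusted p = 0.999). Stab2 had 37.8, 23.4, 0 and 1.73 CPM with DPI (4.50, SE 1.53, adjusted p = 0.999), and this change ran from 3.52 without DPI library 1 to 7.07 without vehicle library 3. The higher values of C1qa, C1qc and Stab2 lay in DPI libraries 1 and 2, and the vehicle and DPI groups overlapped for all 3. Among the DPI libraries these had the higher sums of the endothelial markers, of which Stab2 is itself one. They also had the higher sums of the KC markers (87.4 and 41.4 against 21.7 and 35.2 CPM) and of the general macrophage markers (44392 and 24855 against 23689 and 22182 CPM). Without DPI library 2, C1qa was at 0.77 and C1qc at 0.66, and without DPI library 1 at 0.89 and 1.0, none of them called. Leaving out single vehicle libraries also ended the calls of C1qa (without 1 or 3) and C1qc (without any), and Cd36 lost its call without vehicle library 1 (-0.91) and without DPI library 1 (-0.82) or 2 (-0.98), with scaling by library size alone (-0.96) and with counts thinned to the smallest depth (-0.99).

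**Figure D5:**
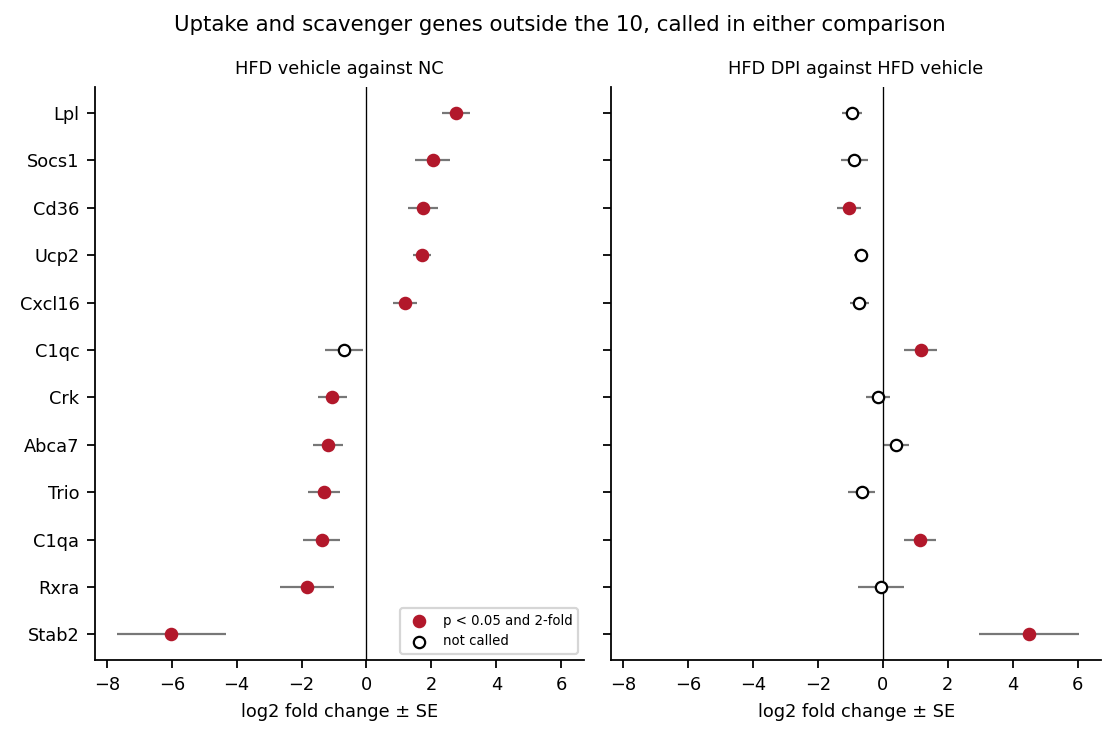
Log2 fold changes (x axis) with standard errors of 12 genes of the uptake and scavenger lists (y axis) in HFD with vehicle against NC and in DPI against vehicle, which share the vehicle libraries. Filled points are called at the threshold above, with Lpl highest at 2.76 and Stab2 lowest at -6.01 on the left, and Cd36 at -1.04 as the single gene called lower on the right. Scarf1, at 0 counts in NC, is not drawn.

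In DPI against NC, 6 of the 81 were called higher and 5 lower, beside 6.24% and 3.05% of all genes tested, with a median of 0.23. Lpl (1.82, SE 0.39, adjusted p = 0.109), Ucp2 (1.03, SE 0.26, adjusted p = 0.201), Socs1 (1.16, SE 0.50, adjusted p = 0.445), Olr1 (2.52, SE 1.04, adjusted p = 0.427), the lectin-like receptor for oxidized lipoprotein, and Cd209a (1.47, SE 0.48, adjusted p = 0.347), a C-type lectin also carried by dendritic cells, were higher, as was Scarf1, at least 3.3-fold above the same floor. Trio (-1.97, SE 0.46, adjusted p = 0.139), Crk (-1.19, SE 0.42, adjusted p = 0.367), Rxra (-1.89, SE 0.76, adjusted p = 0.419), the sorting receptor Sorl1 (-1.02, SE 0.45, adjusted p = 0.453) and the glucose transporter Slc2a1 (-1.19, SE 0.53, adjusted p = 0.454) were lower. Without NC library 1, Socs1, Crk, Rxra, Sorl1 and Slc2a1 were not called, and without NC library 2 Socs1, Olr1 and Cd209a were not. Leaving out single HFD libraries also ended the calls of Ucp2, Socs1, Olr1, Rxra, Sorl1 and Slc2a1, while Lpl and Trio kept theirs with each library left out. Ucp2 was also below 2-fold with RLE scaling (0.99), library size alone (0.82), DESeq2 (0.99) and the replicate block (0.78). Socs1 lost its call with library size alone (0.93), no filter on low counts (1.17), 2 groups only (1.18) and the replicate block (1.13). With 2 groups only, Olr1 (2.54), Sorl1 (-1.0) and Slc2a1 (-1.17) were not called either, nor was Sorl1 with at least 10 counts in every library (-1.0) or without Rn45s (-1.0). Among the 18 listed genes with too few counts to be tested were the TAM receptor Tyro3 and the KC receptors Timd4 and Marco. Timd4 was counted 0 and 28 times in NC, 7, 0 and 0 times with vehicle and 1, 0, 0 and 1 times with DPI, and Marco had 1 count in DPI library 1 and 0 elsewhere.

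The tested gene whose log2 CPM was most like each member over the 9 libraries was found by Pearson r, as a description over libraries that share group, depth and cell type differences. For Stab1 it was Idh1, the cytosolic isocitrate dehydrogenase (r = 0.945), for Mertk Cyb5 (0.956), for Scarb1 the lysosomal galactosidase Glb1 (0.956) and for Scarb2 the spermidine synthase Srm (0.97). Axl was most like the mitochondrial ribosomal gene Mrps22 (0.972), Lrp1 like Tbl1xr1 (0.985), Msr1 like Hax1 (0.934), Mfge8 like Ddb2 (0.934) and Elmo1 like 4933432I03Rik (0.932). Among the members themselves, Scarb1 was most like Stab1 (0.815), Scarb2 and Elmo1 most like each other (0.619), Axl and Msr1 likewise (0.571), and Lrp1 had no member above 0.366.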

How the data were processed

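RNA-seq libraries were made from sorted KCs with a poly(A) mRNA kit. The authors deposited raw whole-number counts per gene, without normalization. Their methods name bowtie2 and RSEM on mm10, whereas the submitters' processing notes name TopHat2 and edgeR, and which of them made the counts is not given in the sources used here. All 9 columns were mapped to libraries by their labels. Strand handling in counting is not given in the sources used here.

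Tests were run on the counts in R 4.3.3 with edgeR 4.0.16 (filterByExpr, TMM, glmQLFit and glmQLFTest), with all 9 libraries in 1 fit of 3 groups and a biological coefficient of variation of 0.65. The threshold of the study, p under 0.05 before adjustment and a change of 2-fold or more, decided which genes were called, and p was also adjusted by the Benjamini-Hochberg method. Fits were tested on simulated data. log2 CPM used a prior count of 2. Exon lengths and positions came from GENCODE M21 on GRCm38, the assembly of mm10, and upstream windows from RefSeq on GRCm38.p6.

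The members and gene lists were chosen with earlier results of these data known. All members were named, and from the 5 lists up to 6 called genes with the smallest p in each direction of each comparison, the gene most like each member by Pearson r, and the most abundant markers or those at 0. The sum of 1 marker list is not reported here. Labels number separate mice, and p-values measure the spread between these libraries. Alternatives were RLE or library size scaling, other filters on low counts, DESeq2 1.42.0, the likelihood ratio test, fits of 2 groups, the replicate block, counts without Rn45s or thinned to the smallest depth, and each library left out. Python 3.11.15, pandas 2.3.3 and matplotlib 3.10.9 were used.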

Additional observations from a re-analysis of the deposited data

Results flagged for a closer look

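Gas6 with DPI was set apart by a single library, replicate 2, at 2.72 CPM from 8 counts, against 0 counts in the other 3 DPI libraries. The gap between this value and the others was the whole range of the group. With the other 3 values at 0, any count in a single library gives that gap, so Dixon's test says nothing here beyond the counts themselves. None of the other 9 members had a DPI library past its critical value.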

How the results depend on the processing

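In HFD with vehicle against NC, 2 members were called, against 1 with scaling by library size alone (Stab1), 1 with the replicate block (Elmo1) and 0 to 3 with a library left out. The listed genes called were 15, and 12 to 23 with a library left out, the highest without NC library 2, where the median of all genes was 0.29. In DPI against vehicle, 0 members were called under every alternative run, and the 4 listed genes became 8 with the replicate block and 2 to 11 with a library left out (2 without DPI library 1, 8 without vehicle library 2, 11 without DPI library 4). In DPI against NC, 0 members and 11 listed genes were called, against 7 listed genes with 2 groups only, and 0 to 1 members and 5 to 22 listed genes with a library left out (5 without DPI library 3, 22 without NC library 2). With scaling by library size alone the log2 fold change turned to -0.07 for Mfge8 and -0.06 for Msr1 in HFD with vehicle against NC and to -0.09 for Axl in DPI against NC. With the replicate block Scarb2 turned to -0.05 in DPI against vehicle, calls were lost by Stab1 (-1.07), C1qa (-0.97) and Rxra (-1.89) in HFD with vehicle against NC, Stab2 (4.52) in DPI against vehicle, and Ucp2, Olr1, Socs1 and Rxra in DPI against NC (0.78, 1.59, 1.13 and -2.34). Fits of 2 groups ended the calls of Abca7 (-1.19) and Crk (-1.05) in HFD with vehicle against NC. The replicate number was not taken as a pairing, since same-numbered libraries of different groups (7 pairs) deviated from their group means with correlations of -0.02 to 0.08. Of the 8 libraries with a same-numbered partner, 6 were most like a library of their own number. That is at most a weak hint of pairing from the data, since the 2 NC libraries deviate as mirror images and DPI library 4 has no partner. Leaving out a library turned the sign in HFD with vehicle against NC for Mfge8 (-0.26 to 0.91), Mertk (-1.15 to 0.28), Axl (-0.28 to 3.02), Lrp1 (-0.48 to 0.20) and Msr1 (-0.06 to 0.58), in DPI against vehicle for Mertk (-0.41 to 0.41), Msr1 (-0.16 to 0.35) and Scarb2 (-0.16 to 0.17), and in DPI against NC for Mertk (-1.06 to 0.38), Axl (-0.64 to 2.65) and Stab1 (-1.52 to 0.03). The cause was not tested. Over all members and named listed genes, 403 of 486 log2 fold changes with a library left out kept their direction and call, 60 lost the call, 4 gained it and 19 turned, and under the other alternatives 505 of 534 kept both, 25 lost the call and 4 turned. Depth limits Gas6 most, at 0 to 8 counts, then Mfge8 and Mertk, with 10 to 215 counts.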
